A study of Arabidopsis thaliana with 24 samples.

Results

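The *brm-3 bcl7a bcl7b* triple mutant of *Arabidopsis thaliana* was compared with WT (Col-0) through its 3 RNA-seq libraries and the 3 WT libraries, 6 of the 24 libraries of the series. The libraries were chosen by their labels, and no measured value entered the choice. The triple mutant carries 3 T-DNA insertion alleles: *brm-3*, a hypomorphic allele of *BRM*, together with *bcl7a-1* and *bcl7b-1*. The *brm-3* single mutant and the *bcl7a bcl7b* double mutant, each with 3 libraries, served as the mutants contained in it, and the *brm-1* null mutant is given beside some results. The remaining genotypes, *bcl7a*, *bcl7b* and *brm-1 bcl7a bcl7b*, entered the filter, the shared fit and the library sums. Whole seedlings, roots and shoots together, were harvested after 14 days on sucrose-containing medium under a short photoperiod (10 h of light, then 14 h of darkness). The hour of harvest is not given in the sources used here. Each mutant is represented by 1 combination of alleles, so an effect of a gene and an effect of its particular insertion line cannot be told apart. RNA came from entire seedlings, and fewer cells of a type and less RNA per cell cannot be told apart in such samples.

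BRM is the ATPase of a SWI/SNF complex, a remodeler that uses ATP to move or evict nucleosomes at promoters and enhancers. BCL7A and BCL7B are small accessory subunits of that complex, named after the related subunits of the mammalian BAF complex. The paper also places them in the SWI/SNF complexes built on the ATPases SYD and MINU. In *Arabidopsis*, BRM is known for its part in leaf and flower development, in the passage from the juvenile to the adult phase, in hormone responses and in opposing Polycomb silencing.

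The mutated genes were examined first. *BCL7B* (AT5G55210, assembly TAIR10.1, chromosome 5: 22396426 to 22397446, minus strand) had normalized counts of 382, 383 and 479 in the WT libraries and 0, 0 and 24 in the triple mutant (log2 change -7.14 ± 0.78, adjusted p = 7.97e-08; here and below ± is the standard error of the model). *BCL7A* (AT4G22320, chromosome 4: 11792813 to 11794778, minus strand) was listed at 0, 18.1 and 30.1 in WT and at 0 in all 3 triple mutant libraries. The same gene had 71.3, 91.6 and 53 in *brm-3*, so that WT was itself low for it, and 24.3% of its 31-base words also occur in the neighbouring AT4G22310. The call for *BCL7A* was lost without WT replicate 2 (0.0669) and without WT replicate 3 (0.1), with the adjusted p in parentheses. *BRM* (AT2G46020, chromosome 2: 18922533 to 18932055, plus strand) had 111, 179.9 and 349.5 in WT and 117, 115 and 163 in the triple mutant, and did not pass the test (log2 change -0.56 ± 0.36, adjusted p = 0.202). A sum over the whole gene does not show whether the transcript runs through the insertion.

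Values are the counts that the authors normalized with DESeq2, put here on the log2 scale after adding 1. A gene was called at a Benjamini-Hochberg adjusted p under 0.05 in limma and a log2 change above 0.6 in either direction. Sums of the normalized counts ran from 35.3 M to 40.94 M (mega) in WT and from 16.55 M to 19.56 M in the triple mutant. The 10 highest genes took 29.03% to 33.61% of the sum in WT and 9.671% to 11.17% in the triple mutant. High sums were found in the 9 WT, *bcl7a* and *bcl7b* libraries (29.86 M to 40.94 M) and low sums in the 15 libraries of the other genotypes (16.55 M to 22.1 M), so that this feature and the genotype cannot be told apart. WT replicate 1 listed 16191 genes at 0, where the other WT libraries reached down to 13250. The *bcl7a bcl7b* replicates 1 and 3 were far closer than any other replicate pair (SD of their log2 ratio over genes 0.0543, against 0.435 to 0.906 for the others) and were counted as 1 sample; without read counts the sampling noise itself could not be estimated. The methods call replicates biological. No label states separate growth, so p-values measure the spread between these samples.

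Of the 21596 genes tested, 6644 (30.8%) were called higher and 4918 (22.8%) lower in the triple mutant than in WT, while 12950 had an unadjusted p under 0.05. The median log2 change of all genes tested was 0.30. The 3 mutant libraries all lay above the 3 WT libraries for 6549 genes (30.3%) and all below for 5059 (23.4%). Genes called higher made up 57.5% of the calls, 48.9% after quantile normalization (median log2 change -0.01) and 85.9% after rescaling to the same total (median 1.26). Directions below are therefore those of the deposited scaling, and a list's counts under the other scalings are given where they differ by more than 1 call in either direction.

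**Figure D1:**
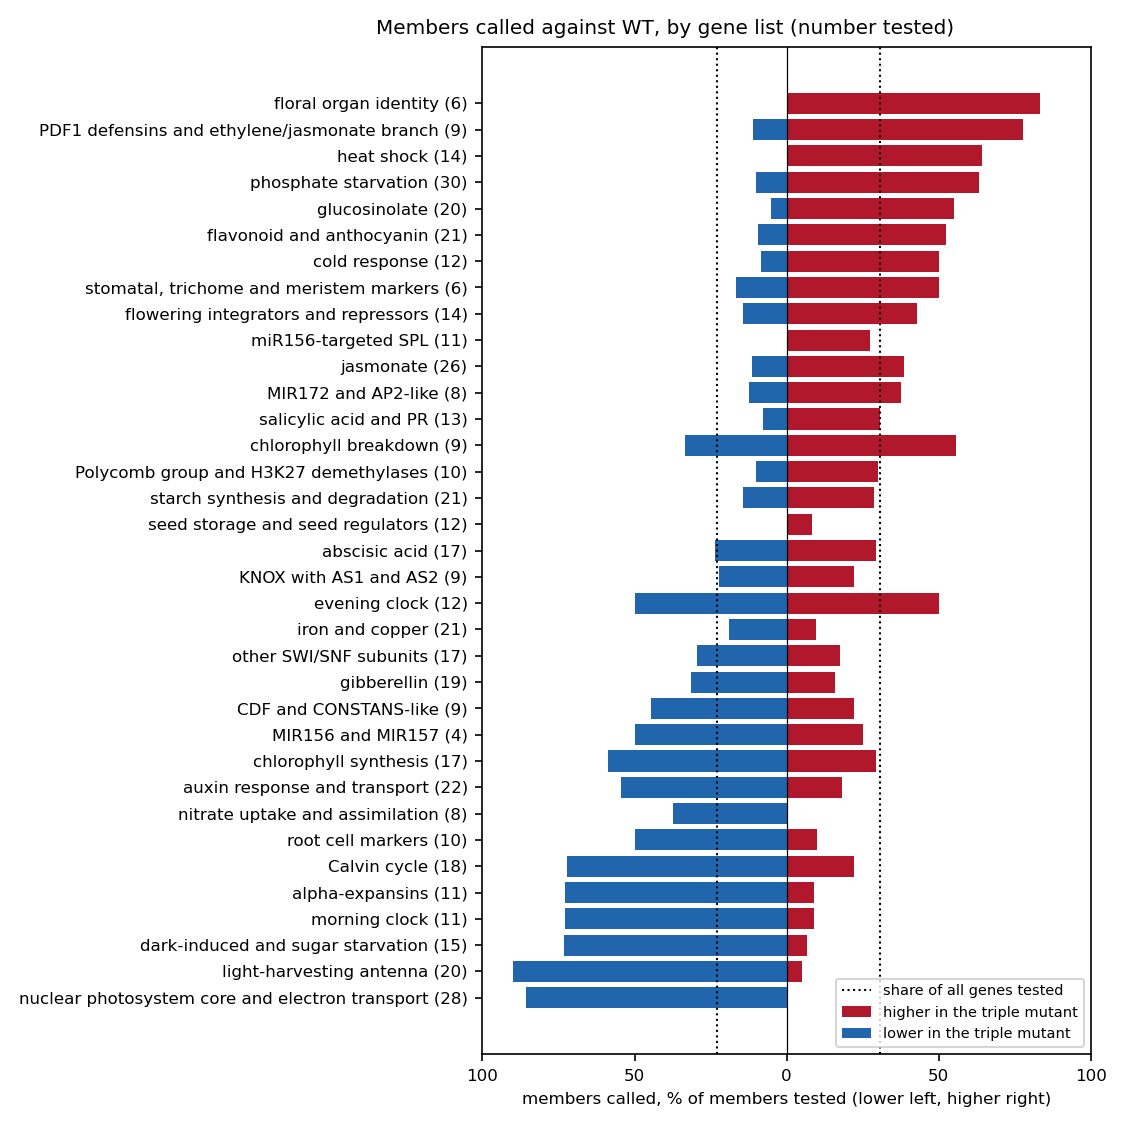
Share of the members of each gene list that were called lower (blue, to the left) or higher (red, to the right) in the triple mutant than in WT, in percent of the members tested, whose number is in parentheses. The dotted lines mark the shares of all 21596 genes tested, 22.8% lower and 30.8% higher. The antenna and photosystem lists lie far to the left, and the floral organ, PDF1 defensin, heat shock and phosphate starvation lists to the right.

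Among genes with values in both groups, the steepest rises were those of genes close to 0 in WT. *FTM1*, a stearoyl-ACP desaturase gene, was listed at 0, 20.9 and 11.8 in WT and had 6809, 6270 and 4739 in the triple mutant (log2 change 9.81 ± 0.68, adjusted p = 6.58e-11). It stayed at 11.6, 7.95 and 21.2 in *brm-3* and at 64.3, 25.9 and 66.4 in *bcl7a bcl7b*, but had 6331, 4666 and 5613 in the *brm-1* null mutant. The triple mutant thus lay with *brm-1* for this gene, far above the 2 mutants it contains. *PDF1.1* (annotated *LCR67*), a plant defensin gene, had 0, 19.9 and 0 in WT, 5.54, 23.4 and 20.1 in *brm-3*, 7.22, 5.66 and 7.46 in *bcl7a bcl7b* and 2211, 1325 and 2019 in the triple mutant, which lay above the 830.3, 586 and 394 of *brm-1* as well. AT4G10265 (9.33 on the log2 scale), AT4G10270 (8.91), the ribonuclease gene *RNS1* (8.96), the calmodulin-like *CML38* (8.88) and *SRO5* (8.82) followed, all below 25 in every WT library and above 900 in every triple mutant library. Of the 31-base words, 90.2% of those of AT4G10270 and 42.4% of those of *SRO5* occur in another gene. *CYS2*, a cystatin gene, had 0, 10.6 and 39.5 in WT, 2566, 1837 and 2900 in the triple mutant and 159, 244 and 191 in *brm-3*. AT1G07050 differed in its pattern. Its 809, 576 and 594 in the triple mutant overlapped the 409, 820.2 and 358 of *brm-3*.

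Several genes had no WT value at all. In all 3 WT libraries 465 of the genes called higher were listed at 0, for which no fold is given. The one with the highest mutant mean was *PDF1.3*, another defensin gene, at 2668, 2885 and 5611 in the triple mutant and 36.3, 38.6 and 45.7 in *brm-3*. *KIN1*, a cold- and abscisic acid-induced gene, had 3958, 789 and 2242, and AT2G17850 had 1842, 1758 and 1761. The latter was also listed at 0 in the 3 *brm-3* libraries and had 3.71, 6.72 and 3.83 in *bcl7a bcl7b*. AT3G29970 was listed at 0 in WT, in *brm-3* and in *bcl7a bcl7b*, and had 799.5, 389 and 625 in the triple mutant and 661, 629 and 339 in *brm-1*.

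The steepest falls reached 0 in single mutant libraries. AT1G66100 had 1243, 921 and 1663 in WT and 0, 21.2 and 0 in the triple mutant (log2 change -8.79 ± 0.76, adjusted p = 2e-09), and *brm-3* lay between them at 507, 388 and 257. AT3G11110 went from 864, 1217 and 980.3 to 0, 3.26 and 1.94 (log2 change -8.77 ± 0.67, adjusted p = 3.23e-10). *ESB1*, a gene of the Casparian strip of the root endodermis, had 1188, 867 and 1323 in WT and 0, 95.4 and 0 in the triple mutant, and 83.7% of its 31-base words occur in another gene. Sequence was also shared for AT2G35945 (72.4% of the words), AT4G22485 (91.3%) and *SAP130b* (90.4%), which fell by 8.17, 7.77 and 7.63 on the log2 scale. Of the 97 genes called lower and listed at 0 in all 3 mutant libraries, AT1G55673 had the highest WT values, 32760, 37240 and 22620. All of its 31-base words also occur in *PSAG*, a photosystem I gene, so its reads cannot be assigned to it alone.

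Photosynthesis genes made up the most uniform group. Chlorophyll a/b-binding proteins of the light-harvesting antenna funnel light energy to the photosystems. Of the 20 antenna genes tested, 18 were called lower and 1 higher, with a median log2 change of -4.18 beside 0.30 for all genes. Over all genes 22.8% were called lower and 30.8% higher. *LHCB2.3*, a gene for the mobile antenna of photosystem II, had 18060, 20840 and 22440 in WT and 35.9, 119 and 23.9 in the triple mutant (log2 change -8.73 ± 0.41, adjusted p = 2.59e-13). *LHCB2.1* and *LHCB2.2*, of the same subfamily, fell by 6.94 and 6.99 on the log2 scale, and share 31.2% and 39.4% of their 31-base words. *LHCB1.1* (annotated *CAB2*), of the most abundant antenna subfamily, had 407500, 521000 and 347600 in WT against 2602, 3246 and 1273 (log2 change -7.57 ± 0.33, adjusted p = 1.48e-13). Groups did not overlap for any of these genes.

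Of the 5 called genes with the highest WT means, 3 were antenna genes. *LHCB1.3* (*CAB1*) had 3742000, 4497000 and 3268000 in WT and 219400, 286600 and 204600 in the triple mutant (log2 change -4.02 ± 0.74, adjusted p = 8.52e-05). *LHCB1.5* (*LHB1B2*) went from 1272000, 2586000 and 1740000 to 18950, 38380 and 19810 (log2 change -6.20 ± 0.42, adjusted p = 5.21e-11), and *LHCB1.4* (*LHB1B1*) fell by 6.02 on the log2 scale. All the 31-base words of *LHCB1.5* occur in the overlapping AT2G08665, and 38.6% of those of *LHCB1.3* and 39.9% of those of *LHCB2.3* occur in another gene. The one antenna gene called higher was *LHCA5*, a minor antenna of photosystem I, with 2545, 2590 and 1628 in WT and 3176, 4279 and 2922 in the triple mutant (log2 change 0.63 ± 0.21, adjusted p = 0.0147); its call was lost in a fit of these groups alone (0.0503), without WT replicate 3 (0.115) and without triple mutant replicate 2 (0.0919), with the adjusted p in parentheses. *LHCB4.3* did not pass the test (68.5, 58.7 and 92.5 against 133, 100 and 179, adjusted p = 0.0505). The list kept 18 lower calls after rescaling to the same total and 17 after quantile normalization. The others of the 5 were *PSBR*, described below, and the ribosomal RNA gene AT3G41979, which had 1272000, 1794000 and 2350000 in WT and 253700, 303900 and 200200 in the triple mutant. All of its 31-base words occur elsewhere, and its call was lost after quantile normalization (0.612).

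Nuclear genes for the photosystem cores and for electron transport fell as well, 24 of the 28 tested, with none called higher and a median of -1.90. The shares of all genes were 22.8% lower and 30.8% higher. *PSAF*, a subunit of photosystem I that docks plastocyanin, had 92640, 132300 and 103700 in WT and 6292, 7383 and 6780 in the triple mutant (log2 change -3.99 ± 0.23, adjusted p = 4.57e-12). *PSBO1*, of the oxygen-evolving complex, went from 268000, 267500 and 254000 to 23940, 29370 and 20920 (log2 change -3.42 ± 0.27, adjusted p = 6.04e-10), and *PSAD2* and the plastocyanin gene *PETE1* fell by 3.64 and 3.53 on the log2 scale. Of the 4 members not called, *PSAK* (24870, 31690 and 20100 against 31420, 34940 and 26770) and the second plastocyanin gene *PETE2* (annotated *DRT112*; 90700, 93400 and 73660 against 65470, 68990 and 43050) had the highest means, and *FNR1* and *FNR2* for ferredoxin-NADP reductase were the others (adjusted p = 0.173 and 0.0592). *PSBR*, of photosystem II, had 1259000, 774800 and 546300 in WT and 306400, 345000 and 246700, and its call was lost with no filter (0.0595), after rescaling to the same total (0.255), in a fit of these groups alone (0.0959) and without WT replicate 1 (0.0563), with the adjusted p in parentheses. After quantile normalization *PSBR* was called higher (log2 change 1.094, adjusted p = 0.00582). After rescaling to the same total the list had 3 higher and 15 lower, and after quantile normalization 6 higher and 16 lower.

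Promoters of the photosystem list were searched for the I-box (GATAAG), a short element described in light-regulated plant promoters, on both strands of a window from 250 bases before to 50 after the annotated start. It occurred in 15 of 28 windows (53.6%), beside 15% of the windows of all genes tested and 16.3% of those of genes called lower. *PSAF* is shown because it fell furthest in the list and its window holds 3 of them (chr1:11216092-11216391, minus strand, RefSeq annotation of TAIR10.1, motifs in capitals).
PSAF: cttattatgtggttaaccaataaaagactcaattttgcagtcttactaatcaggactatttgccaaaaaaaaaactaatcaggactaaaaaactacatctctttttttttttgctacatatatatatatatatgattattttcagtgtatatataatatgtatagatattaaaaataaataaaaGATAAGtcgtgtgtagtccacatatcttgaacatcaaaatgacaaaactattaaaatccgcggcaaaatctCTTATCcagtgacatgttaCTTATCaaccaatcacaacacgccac
A match is a description of the letters and not a binding site. The I-box was found in 6 of the 20 antenna windows (30.0%). It was not particular to photosynthesis lists. Its share was higher than in the photosystem list in dark-induced and sugar starvation genes (9 of 15, 60.0%) and in miR156-targeted *SPL* genes (6 of 11, 54.5%). All the other lists had lower shares than the photosystem list.

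In the Calvin cycle, which fixes CO2, 13 of 18 genes were called lower and 4 higher (median -1.18), beside 22.8% and 30.8% of all genes. *RCA*, which activates Rubisco, had 47930, 54280 and 40060 in WT and 9075, 10770 and 9461 in the triple mutant (log2 change -2.27 ± 0.27, adjusted p = 3.4e-07). *RBCS1A*, the main gene for the small subunit of Rubisco, had 311200, 377500 and 285800 against 82360, 81740 and 70710 (log2 change -2.05 ± 0.37, adjusted p = 7.94e-05), but after quantile normalization the call was lost and the sign turned (log2 change 0.12, adjusted p = 0.768). In contrast to *RBCS1A*, its relative *RBCS1B* rose from 4868, 4811 and 2184 to 14310, 13470 and 12250 (log2 change 1.84 ± 0.31, adjusted p = 3.18e-05). *CP12-2*, *GAPA2* and *SBPASE* were the other members called higher (1.24, 0.98 and 0.90), and *PRK*, for phosphoribulokinase, was among those that fell (log2 change -1.81). *TKL1* (AT3G60750) was the member not called (adjusted p = 0.17). The list turned to 5 higher and 4 lower under the same total and 4 higher and 5 lower under quantile normalization.

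Chlorophyll synthesis was split, with 5 genes called higher and 10 lower of 17 (median -0.91), beside 30.8% and 22.8% of all genes. *CRD1*, which acts in the closure of the fifth ring, fell from 37710, 46810 and 43520 to 3952, 5137 and 4320 (log2 change -3.26 ± 0.18, adjusted p = 3.83e-12), and AT1G74470 and *PORB*, for a protochlorophyllide reductase, fell by 2.58 and 2.36. *CHLI1* and *CHLI2*, subunits of the magnesium chelatase that opens the chlorophyll branch, rose instead. *CHLI1* had 2162, 1270 and 1010 in WT and 4798, 5765 and 6068 in the triple mutant (log2 change 1.97 ± 0.21, adjusted p = 4.36e-08), and *CHLI2* changed by 2.298 on the log2 scale. The rise of *HEMA1*, of the first committed step (0.67), was lost without WT replicate 3 (0.0653) and without triple mutant replicate 2 (0.0739), and the fall of *PORA* (-2.65) was lost after rescaling to the same total (0.139) and without triple mutant replicate 1 (0.102), with the adjusted p in parentheses. The list had 7 higher and 3 lower under the same total and 5 higher and 8 lower under quantile normalization. Of 9 genes of chlorophyll breakdown 5 were called higher and 3 lower, beside 30.8% and 22.8% of all genes. Among those higher were *NYC1* (407, 592 and 718 against 2023, 1651 and 1583) and *NYE1* for a magnesium dechelatase (1.34). The other breakdown calls were *CLH1* (1.88), *NYE2* (2.06) and *HCAR* (1.51) on the higher side and *PPH* (-1.92), *PAO* (-1.50) and *NOL* (-0.87) on the lower side. Of these 8 calls, those of *PAO* and *NOL* were lost after rescaling to the same total, where *NOL* changed sign (0.15) and the list had 6 higher and 1 lower. The *NOL* call was also lost after rescaling without the 100 highest genes (0.0505).

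**Figure D2:**
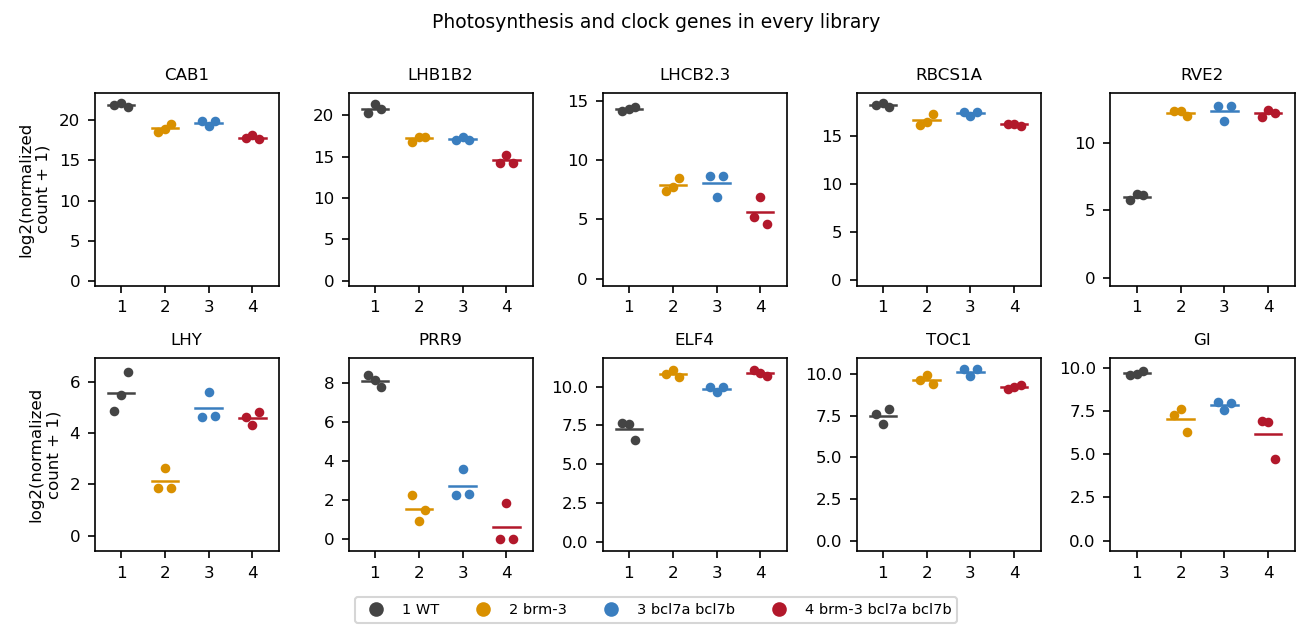
Normalized counts of 10 photosynthesis and clock genes on a log2 scale after adding 1 (vertical axis) in WT, *brm-3*, *bcl7a bcl7b* and the triple mutant (horizontal axis). Each point is 1 deposited library and the line is the mean of the 3. *CAB1* (*LHCB1.3*), *LHB1B2* (*LHCB1.5*), *LHCB2.3* and *PRR9* are lower in all 3 mutants than in WT, while *RVE2*, *ELF4* and *TOC1* are higher.

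Morning clock genes were mostly lower, and evening clock genes went both ways. The *Arabidopsis* clock couples morning-phased MYB factors and pseudo-response regulators with the evening-phased *TOC1*, *GI* and evening complex, each repressing or activating the next. In the morning list 8 of 11 genes were called lower and 1 higher (median -2.33), beside 22.8% and 30.8% of all genes. *PRR9*, a repressor of *CCA1* and *LHY*, had 341, 282 and 219 in WT and 0, 2.56 and 0 in the triple mutant (log2 change -7.50 ± 0.74, adjusted p = 1.91e-08), and 31.1% of its 31-base words occur in AT2G46670. The coactivator gene *LNK2* (AT3G54500) went from 653, 879 and 1413 to 83.2, 53.5 and 72.4 (log2 change -3.75 ± 0.43, adjusted p = 1.71e-07), and *LNK1* (AT5G64170) and *RVE7* (annotated *EPR1*; 58.6% of its 31-base words shared) fell by 3.11 and 3.21 on the log2 scale. *RVE2* was the exception, with 53.3, 71 and 68.6 in WT and 3923, 5609 and 4664 in the triple mutant (log2 change 6.17 ± 0.37, adjusted p = 8.81e-12). Both members not called, *LHY* (28, 43.2 and 82.1 against 23.6, 18.7 and 26.9) and *RVE1* (54.5, 114 and 259.6 against 101, 71.2 and 128), had low values. After rescaling to the same total the list had 1 higher and 5 lower.

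Of the 12 evening clock genes 6 rose and 6 fell, beside 30.8% and 22.8% of all genes. *ELF4*, a member of the evening complex, had 199, 193 and 93.5 in WT and 2102, 1844 and 1660 in the triple mutant (log2 change 3.595 ± 0.28, adjusted p = 3.5e-10). *TOC1*, the repressor at the centre of the evening loop, had 196, 128 and 232 against 541, 589.8 and 649.6 (log2 change 1.71 ± 0.21, adjusted p = 5.25e-07). The rises of *BOA* (5.23; 44.3% of its 31-base words shared) and *PRR3* (3.69) rest on WT values of 0, 67 and 45.8 and of 0, 58.9 and 24.7. By contrast *GI* fell from 774, 819 and 913 to 121, 114 and 25.2 (log2 change -3.54 ± 0.56, adjusted p = 1.47e-05), and so did *CHE* (annotated *TCP11*), a *CCA1* repressor, from 4764, 6504 and 5556 to 265, 442 and 323 (log2 change -4.05 ± 0.18, adjusted p = 1.68e-13). *ZTL*, an F-box photoreceptor that targets TOC1 for degradation, and its relative *LKP2* fell by 3.01 and 1.90 on the log2 scale. The 2 directions therefore held within the evening list, and quantile normalization (5 higher and 6 lower) and the same total (6 higher and 5 lower) changed 1 call each.

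Promoter windows of the clock genes are shown for 1 gene of each direction. The G-box (CACGTG), bound by bZIP and bHLH factors, occurred in 9 of 11 morning windows (81.8%), beside 8.74% of the windows of all genes tested. The evening element (AAAATATCT), bound by CCA1-type MYB factors, occurred in 5 of 12 evening windows (41.7%), beside 3.03%. Both strands were searched, and capitals mark these motifs and the I-box in *PRR9*, which fell (chr2:19232357-19232656, plus strand), and *TOC1*, which rose (chr5:24674713-24675012, plus strand).
PRR9: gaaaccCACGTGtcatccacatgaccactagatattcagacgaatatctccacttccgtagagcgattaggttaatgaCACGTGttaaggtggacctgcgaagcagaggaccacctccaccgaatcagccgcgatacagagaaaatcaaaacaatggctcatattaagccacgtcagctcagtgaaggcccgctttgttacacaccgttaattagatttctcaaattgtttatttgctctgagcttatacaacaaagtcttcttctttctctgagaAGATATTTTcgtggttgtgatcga
TOC1: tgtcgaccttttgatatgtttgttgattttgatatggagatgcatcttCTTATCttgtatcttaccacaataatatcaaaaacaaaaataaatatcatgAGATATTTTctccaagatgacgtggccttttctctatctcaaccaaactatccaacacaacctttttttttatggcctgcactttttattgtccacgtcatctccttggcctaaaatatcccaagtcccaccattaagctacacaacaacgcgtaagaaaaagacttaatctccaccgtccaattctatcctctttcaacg
Over all genes the evening element was found in 3.11% of the windows of those called higher and 2.91% of those called lower, beside 3.03% of all tested, with no test of the difference.

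The CDF and CONSTANS-like list, which links the clock to day length, had 2 of 9 genes called higher and 4 lower. Over all genes the shares were 30.8% and 22.8%. *CDF3* fell from 631, 776 and 819.8 to 49.9, 43.9 and 17.57 (log2 change -4.41 ± 0.41, adjusted p = 7.23e-09), *COL5* from 7050, 6077 and 8678 to 1089, 1035 and 950.2 (log2 change -2.81 ± 0.15, adjusted p = 2.52e-12), and *COL2* and *COL1* by 2.73 and 2.50. Nearly all 31-base words of *COL1* (98.4%) occur elsewhere. On the other side, *COL9* had 0, 51.2 and 35.2 in WT and 499, 653 and 627 in the triple mutant (log2 change 5.58 ± 0.81, adjusted p = 4.74e-06), and *CO*, the long-day activator of flowering, was listed at 0 in WT and had 30.8, 9.77 and 34.9.

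Genes of the phosphate starvation response were among the most raised. Plants short of phosphate release the factor PHR1 from SPX proteins, which then induces phosphatases, transporters, miR399 and the non-coding *IPS1*. Of 36 genes listed, 30 were tested, 19 of them called higher and 3 lower, with a median log2 change of 2.21. Over all genes the shares were 30.8% and 22.8%. *RNS1*, a secreted ribonuclease, had 0, 16.4 and 0 in WT and 1704, 929.7 and 1368 in the triple mutant (log2 change 8.96 ± 0.98, adjusted p = 8.25e-08). *PEPC1*, a phosphatase gene (AT1G17710), had 0, 33.1 and 0 in WT and 1693, 309 and 1868 in the triple mutant (log2 change 8.26 ± 1.12, adjusted p = 1.93e-06). Triple mutant replicate 2 was the lowest of the 3 for both, and for *SPX3*, which was listed at 0 in WT and had 404, 96.6 and 587. The precursor of miR399c (*MIR399c*) was listed at 0 in WT and had 328, 61.3 and 181. *IPS1*, which sequesters miR399, ranged widely, with 19.9, 359 and 0 in WT and 862, 246 and 1432 in the triple mutant (log2 change 5.11 ± 1.69, adjusted p = 0.0139), and its call was lost with a pseudocount of 0.1 (0.0518), without WT replicate 3 (0.132) and without triple mutant replicate 3 (0.0551), with the adjusted p in parentheses.

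The 3 genes called lower were the transporter genes *PHT1;1* (2286, 3348 and 3266 against 316, 432 and 551, log2 change -2.79 ± 0.25, adjusted p = 3.96e-09; 49.9% of its 31-base words are shared) and *PHO1* (-1.25) and the ubiquitin-conjugating enzyme gene *PHO2* (306, 402 and 902 against 273, 306 and 263, log2 change -0.78 ± 0.28, adjusted p = 0.0231), the target of miR399. The call for *PHO1* was lost after rescaling to the same total (0.446). That for *PHO2* was lost after rescaling without the 100 highest genes (0.131), in a fit of these groups alone (0.116), without WT replicate 3 (0.256), without triple mutant replicate 1 (0.0553) and without triple mutant replicate 3 (0.0628), with the adjusted p in parentheses, and its sign turned under the same total (0.24). Of the members not called, *AT4* (AT5G03545), another non-coding target mimic, had 6007, 9279 and 3551 in WT and 7552, 3755 and 15860 in the triple mutant, and *PHT1;4* had 414, 397 and 416 and 571, 294 and 611. The list had 23 higher and 1 lower under the same total and 19 higher and 4 lower under quantile normalization.

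The sequences behind this group are shown for the miRNA and its target, whose transcripts were called in opposite directions, and for the promoter of *SPX3*. Capitals mark the seed (bases 2 to 8) of the mature RNA, the paired bases in the site of *PHO2* and, in the promoter (chr2:18606160-18606459, plus strand), the P1BS element GNATATNC, to which PHR1 binds.
miR399c-3p: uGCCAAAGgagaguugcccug
PHO2 site: tAGGGCAAaTCTtCTTTGGCA
SPX3: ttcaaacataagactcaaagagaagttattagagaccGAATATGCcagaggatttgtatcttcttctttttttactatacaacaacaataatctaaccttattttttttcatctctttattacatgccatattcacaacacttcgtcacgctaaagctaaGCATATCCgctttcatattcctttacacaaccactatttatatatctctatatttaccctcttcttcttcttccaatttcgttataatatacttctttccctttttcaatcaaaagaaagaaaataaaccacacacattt
In the *PHO2* site, the closest match found in its transcripts, 18 of 21 bases pair with miR399c. Only A:U and G:C pairs were counted, here and below, so a G:U pair stands in lower case. Further sites in a transcript were not listed. P1BS, searched on both strands, was found in 12 of 30 promoter windows of the list (40.0%), beside 6.33% of those of all genes tested, 6.55% of those called higher and 6.33% of those called lower.

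Transcripts of the juvenile-phase miRNAs were lower in part. miR156 and miR157 repress the SPL factors, which promote the adult phase. Of 12 *MIR156* and *MIR157* loci listed, 4 were tested, and these values are of the primary transcripts, not of the mature miRNA. *MIR156a* had 60.7, 156 and 128 in WT and 27.1, 12.9 and 20.5 in the triple mutant (log2 change -2.40 ± 0.56, adjusted p = 0.000954). *MIR156c* went from 533, 734 and 868 to 155, 222 and 175 (log2 change -1.93 ± 0.24, adjusted p = 4.55e-07), with *brm-3* at 313, 453 and 349.5 and *bcl7a bcl7b* at 427, 489 and 422. For both loci the triple mutant lay below both mutants it contains (adjusted p = 0.0182 and adjusted p = 0.00343 against *brm-3*, adjusted p = 0.00958 and adjusted p = 0.000639 against *bcl7a bcl7b*). *MIR157c* moved the other way, with 0, 8.35 and 0 in WT and 670.4, 569 and 721 in the triple mutant (log2 change 8.27 ± 0.95, adjusted p = 1.71e-07), and with 179.9, 364 and 242 in *brm-3*. *MIR157a* did not pass the test (245, 156 and 145 against 104, 118 and 203).

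The mature sequences are shown with the target sites because *MIR157c* was called in the opposite direction to *MIR156a* and *MIR156c*. The seeds of miR156a and miR157c are shifted against each other. *MIR157a*, the other *MIR157* locus tested, was not called. Capitals mark the seed in the RNAs and, in the sites, the bases paired with miR156 when G:U pairs are not counted. The RNAs are from the RefSeq annotation of TAIR10.1: miR156a lies on chromosome 2 from 10676534 to 10676553 on the minus strand, and the 5′ products of *MIR156a* to *MIR156f* are identical.
miR156a-5p: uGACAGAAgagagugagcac
miR157c-5p: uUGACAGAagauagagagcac
SPL3 site: tTGCTtACTCTCTTCTGTCA
SPL4 site: cTGCTCtCTCTCTTCTGTCA
SPL13A site: GTGCTCtCTCTCTTCTGTCA
The site of *SPL13A* (19 of 20 bases paired) is identical in *SPL2*, *SPL6*, *SPL9*, *SPL10*, *SPL11*, *SPL13B* and *SPL15*, whereas those of *SPL3* and *SPL4* pair at 18 bases each.

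Of these targets, 3 of 11 were called higher and none lower, against 30.8% and 22.8% of all genes (median 1.28). *SPL4* had 30.01, 38.7 and 55.4 in WT and 189.9, 272 and 234 in the triple mutant (log2 change 2.49 ± 0.46, adjusted p = 9.82e-05), and *SPL3* 1219, 1359 and 1271 against 2158, 3231 and 2336 (log2 change 0.98 ± 0.33, adjusted p = 0.0147). The call for *SPL3* was lost without triple mutant replicate 2 (0.0719) (adjusted p in parentheses), and 94.3% of its 31-base words occur in the antisense gene AT2G33815. *SPL13A* (0, 0 and 34 against 144, 100.2 and 10.3, adjusted p = 0.00492) and *SPL13B* (81.6, 188 and 142 against 324, 235 and 471, adjusted p = 0.412) are near-identical copies whose reads can be split arbitrarily, and the *SPL13A* call was lost in a fit of these groups alone (0.0627). Under the same total 8 of the 11 were called higher, under quantile normalization 3 higher and 1 lower, and without WT replicate 3 there were 5 higher.

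**Figure D3:**
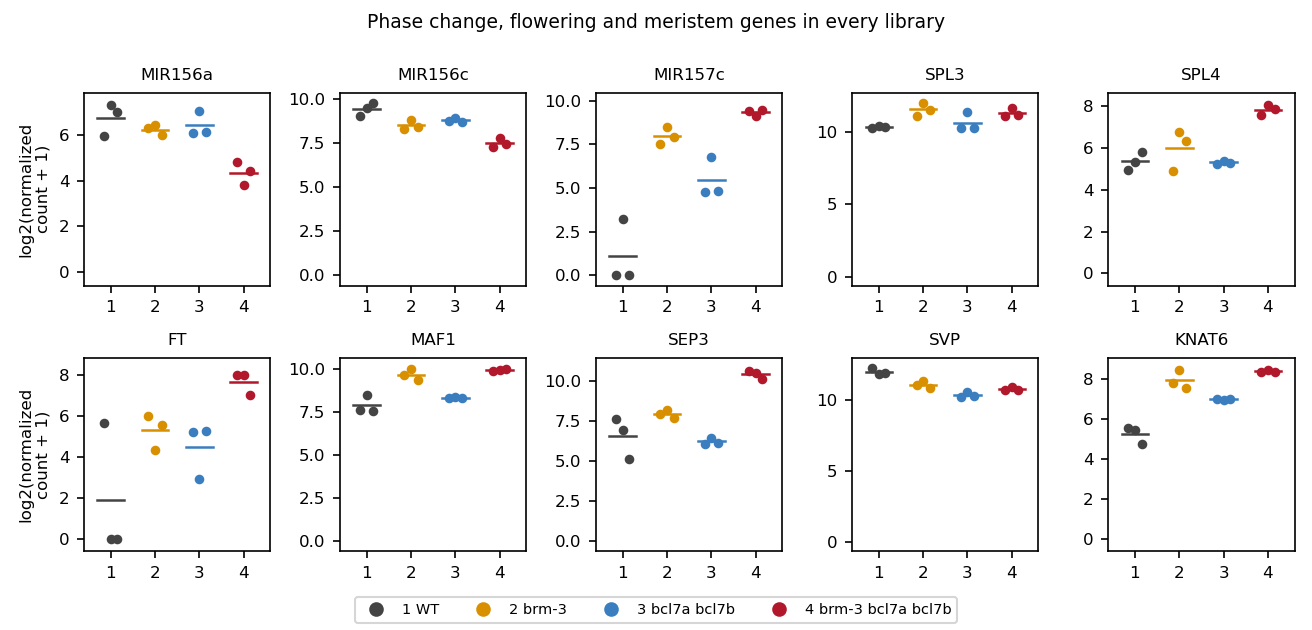
Normalized counts of 10 genes of phase change, flowering and meristems on a log2 scale after adding 1 (vertical axis) in WT, *brm-3*, *bcl7a bcl7b* and the triple mutant (horizontal axis). Points are single libraries and lines their means. *MIR156a* and *MIR156c* are lowest in the triple mutant and *SEP3* and *FT* highest, while *SVP* lies below WT in all 3 mutants.

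The miR172 loci and their AP2-like targets, which delay flowering, showed 3 of 8 tested genes higher and 1 lower. Over all genes the shares were 30.8% and 22.8%. *MIR172b* had 0, 6.58 and 0 in WT and 88.6, 26.9 and 37.6 in the triple mutant (log2 change 4.55 ± 0.82, adjusted p = 7.06e-05), *SMZ* changed by 2.15 and *AP2* rose from 318, 231 and 264 to 607, 480.1 and 531 (log2 change 0.997 ± 0.21, adjusted p = 0.000297). *TOE1* (annotated *RAP2.7*) fell from 795, 575 and 630.3 to 401, 217 and 377 (log2 change -1.04 ± 0.24, adjusted p = 0.000798; call lost after rescaling to the same total (0.941)). Targets were thus called in both directions on the deposited scaling. The sites of *AP2* and *TOE1* are shown beside the mature miR172b (seed and paired bases in capitals).
miR172b-3p: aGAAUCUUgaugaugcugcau
AP2 site: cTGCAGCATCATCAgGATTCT
TOE1 site: caGCAGCATCATCAgGATTCT
Without G:U pairs, the sites pair at 19 and 18 of 21 bases. *MIR172a*, *TOE2*, *TOE3* and *SNZ* did not pass the test, and under the same total 4 members were called higher and none lower.

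Flowering integrators and repressors had 6 of 14 tested genes called higher and 2 lower, beside 30.8% and 22.8% of all genes. *FT*, the mobile inducer of flowering, had 49.8, 0 and 0 in WT and 261, 255 and 128 in the triple mutant (log2 change 5.79 ± 1.25, adjusted p = 0.00047). The repressor *FLM* (annotated *MAF1*) rose from 196, 352 and 188 to 939, 989.8 and 1039 (log2 change 2.07 ± 0.25, adjusted p = 4.63e-07), and the repressor *SVP* fell from 4935, 3773 and 3821 to 1723, 1942 and 1665 (log2 change -1.22 ± 0.17, adjusted p = 1.69e-06; lost after rescaling to the same total (0.314)). *FUL* (4.01), which promotes flowering, and *TFL1* (3.89), which keeps the shoot apex indeterminate, rose from WT values of at most 6.34. The fall of *TEM2* (annotated *RAV2*; -0.71) was lost after quantile normalization (log2 change -0.49) and after rescaling without the 100 highest genes (0.0729), and its sign turned under the same total (0.31), where 9 higher and 0 lower were called.

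Of 9 genes of floral organ identity 6 were tested and 5 called higher (median 3.56), beside 30.8% of all genes. *SEP3*, a cofactor of the other floral MADS factors, had 197, 124 and 34 in WT and 1599, 1464 and 1146 in the triple mutant (log2 change 3.87 ± 0.42, adjusted p = 7.31e-08), with 251, 294 and 208 in *brm-3*. *PI*, a petal and stamen gene, had 227, 112 and 43.7 against 901, 638 and 445 (log2 change 2.60 ± 0.53, adjusted p = 0.000269). *AP3* and *SHP2* were listed at 0 in WT and had 18.1, 2.46 and 31.9 and 22.9, 9.99 and 14.2 in the triple mutant, and both calls were lost after quantile normalization. The call for *AG* (0, 0 and 11.8 against 54.4, 4.08 and 55.1) was lost after quantile normalization (0.18), in a fit of these groups alone (0.0941), without WT replicate 1 (0.0908), without WT replicate 2 (0.0912), without triple mutant replicate 1 (0.0953) and without triple mutant replicate 3 (0.0957), with the adjusted p in parentheses, and *SHP1* did not pass the test. At such low values a gene can be listed at 0 in one library and well above 0 in another of its genotype. After quantile normalization 2 members were called higher.

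Of the 9 genes of the KNOX list, which includes *AS1* and *AS2*, 2 were called higher and 2 lower. Over all genes the shares were 30.8% and 22.8%. *KNAT6* rose from 45.8, 43.7 and 26.4 to 326, 351 and 332 (log2 change 3.13 ± 0.36, adjusted p = 2.12e-07) and *KNAT3* from 285, 249 and 259 to 684, 794 and 718 (log2 change 1.47 ± 0.21, adjusted p = 4.16e-06). *STM*, the gene that maintains the shoot meristem, fell from 268, 338 and 257 to 33.1, 148 and 76.3 (log2 change -1.97 ± 0.37, adjusted p = 0.000102). *KNAT5* (-0.96) changed sign under the same total (0.06), where 7 higher and 1 lower were called. *KNAT1*, *KNAT2*, *KNAT4*, *AS1* and *AS2* did not pass the test.

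Markers of other seedling parts were set beside these results. Among 10 root markers 5 were called lower and 1 higher (median -1.33), beside 22.8% and 30.8% of all genes. *CASP1*, of the Casparian strip, fell from 509, 615 and 767 to 45.9, 59.5 and 44 (log2 change -3.63 ± 0.30, adjusted p = 1.2e-09), and *SHR*, *PRP3* and *SCR* by 2.45, 2.09 and 1.41 on the log2 scale. The fall of *CASP2* (-1.38) was lost after rescaling to the same total (0.485) and without triple mutant replicate 1 (0.0726), and that of *SCR* after rescaling to the same total (0.209) (adjusted p in parentheses). *RSL4*, a root hair regulator, was the gene called higher (0, 8.37 and 13.3 against 63.6, 42.4 and 78.9), and *COBL9*, *RHD6*, *PLT1* and *PLT2* did not pass the test. Of 8 stomatal, trichome and meristem markers 6 were tested, 3 called higher and 1 lower, beside 30.8% and 22.8% of all genes. The stomatal regulators *MUTE* (18.17, 0 and 0 against 104, 90.3 and 50.7) and *SPCH* (0, 8.34 and 11.8 against 22.1, 51.3 and 105) were called higher, as was the trichome gene *GL1*, listed at 0 in WT and at 7.02, 19.6 and 22 in the triple mutant (call lost after quantile normalization (0.0864)). *GL2*, active in trichomes and in root epidermis, fell from 246, 228 and 309 to 51.6, 7.25 and 46.5 (log2 change -3.24 ± 0.51, adjusted p = 1.25e-05). Of 20 seed genes 12 were tested and only *ABI5* was called (14.4, 65.2 and 22.7 against 172, 85.1 and 80.2), a call lost after quantile normalization (0.0734), without WT replicate 1 (0.0729) and without triple mutant replicate 1 (0.076). Under the same total the root list had 1 higher and 3 lower and the stomatal list 5 higher and 1 lower. The part of root or leaf tissue in the other results was not tested.

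**Figure D4:**
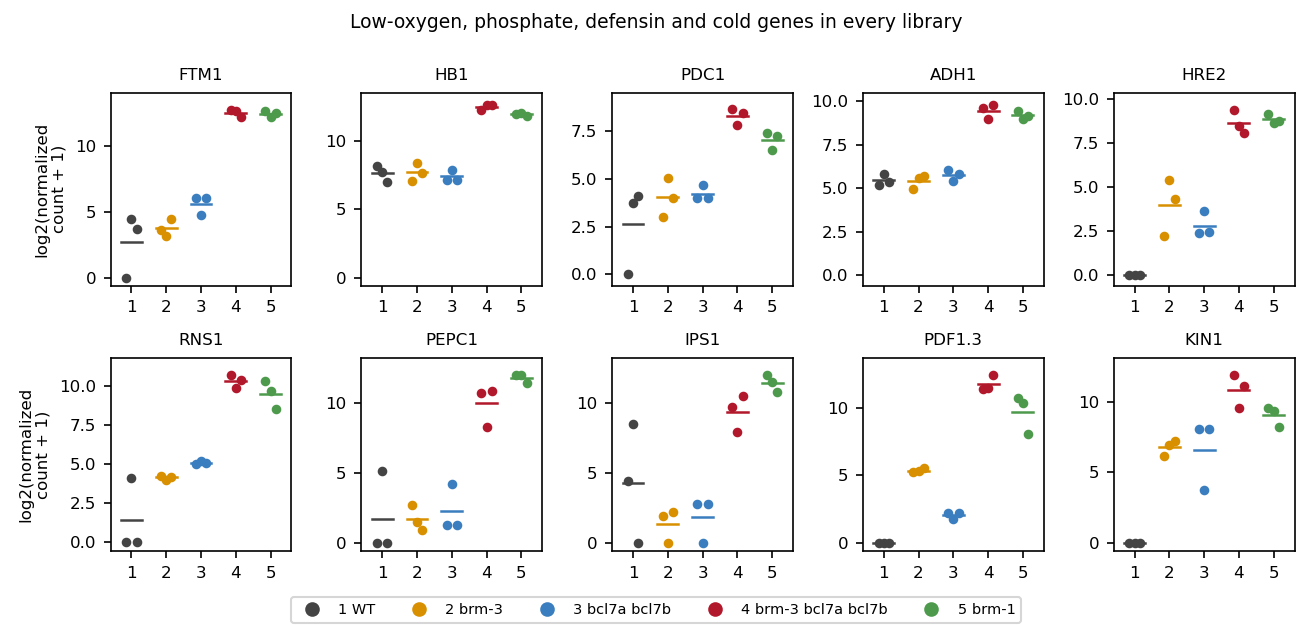
Normalized counts of 10 stress-related genes on a log2 scale after adding 1 (vertical axis) in WT, *brm-3*, *bcl7a bcl7b*, the triple mutant and *brm-1* (horizontal axis). Points are single libraries and lines their means. *FTM1*, *HB1*, *ADH1*, *HRE2*, *PEPC1* and *PDF1.3* are high in the triple mutant and in *brm-1* and low in WT, *brm-3* and *bcl7a bcl7b*.

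A group of 18 genes of the low-oxygen response was written down after the largest rises had been seen, so its values are a description. Under low oxygen, plants stabilize group VII ERF factors and induce fermentation, sucrose synthases and a haemoglobin. *HB1*, the haemoglobin gene, had 279.7, 212 and 129 in WT and 4938, 6240 and 6270 in the triple mutant, beside 134, 330.3 and 198 in *brm-3*, 139, 239 and 144 in *bcl7a bcl7b* and 3981, 4329 and 3589 in *brm-1*. *ADH1*, for alcohol dehydrogenase, had 35.6, 54.3 and 39.9 in WT, 762, 504 and 855 in the triple mutant and 695, 503 and 552 in *brm-1*. For both genes *brm-3* and *bcl7a bcl7b* overlapped or lay near WT. *PDC1* (AT4G33070), for pyruvate decarboxylase, had 0, 12.5 and 16.3 against 395, 228 and 350.3. *HRE2* (annotated *ERF71*) was listed at 0 in WT and had 669, 352 and 264. The log2 change was 3.97 for *PCO2* (AT5G39890) and 2.83 for *PCO1* (AT5G15120), the oxygen-sensing cysteine oxidases, 4.42 for *HRA1* (AT3G10040), 3.23 for *ACO1* and 3.52 and 1.53 for the sucrose synthase genes *SUS4* and *SUS1*. *HRE1* (annotated *ERF73*), *LBD41* and *ETR2* did not pass the test against WT (adjusted p = 0.303, 0.086 and 0.0527).

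Heat shock genes had 9 of 14 members called higher and none lower (median 2.3), beside 30.8% and 22.8% of all genes. *HSP22*, a small heat shock protein gene, was listed at 0 in WT and had 132, 34.3 and 219.5 in the triple mutant, and *HSP21* of the chloroplast had 33.8, 2.11 and 0 against 288, 98 and 138 (log2 change 5.05 ± 1.11, adjusted p = 0.000525). *HSP17.6A* rose from 23.4, 0 and 8.82 to 449, 136 and 108 (log2 change 4.93 ± 1.28, adjusted p = 0.00253). The chaperone genes *HSP101* (63, 60.1 and 44.6 against 169, 47.2 and 74.9) and *HSP70-4* (407, 536 and 564 against 864, 394 and 333) did not pass the test. Calls numbered 13 under the same total and 9 under quantile normalization, all higher.

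In the cold list 6 of 12 tested genes were called higher and 1 lower, beside 30.8% and 22.8% of all genes. Besides *KIN1*, the zinc finger gene *ZAT12* (annotated *RHL41*) had 0, 118 and 30.9 in WT and 325, 522 and 577 in the triple mutant (log2 change 4.89 ± 0.93, adjusted p = 0.000129), and the dehydrin gene *ERD10* rose from 479.5, 756 and 847 to 4776, 2074 and 3437 (log2 change 2.26 ± 0.50, adjusted p = 0.000569). *COR78* (annotated *LTI78*) changed by 2.44, a call lost without triple mutant replicate 1 (0.0514) and without triple mutant replicate 3 (0.0625). *CBF3* (annotated *DREB1A*), a master regulator of the response, had 35.8, 154 and 75.5 against 22.9, 0 and 22, and its lower call was lost after rescaling to the same total (0.094), in a fit of these groups alone (0.0645), without WT replicate 2 (0.0979), without WT replicate 3 (0.0568) and without triple mutant replicate 2 (0.235), with the adjusted p in parentheses. *CBF2* did not pass the test (adjusted p = 0.0521). The list had 8 higher and 0 lower under the same total and 6 higher and 2 lower under quantile normalization.

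Of 17 abscisic acid genes 5 were called higher and 4 lower, shares close to the 30.8% and 22.8% of all genes. *PYR1*, a receptor, rose from 1256, 1320 and 665 to 8184, 8606 and 6469 (log2 change 2.90 ± 0.34, adjusted p = 2.46e-07), and the phosphatase gene *HAB1* and the kinase gene *OST1* rose by 2.04 and 1.89 on the log2 scale. *RAB18*, a response gene, fell from 2498, 2584 and 2300 to 47.5, 60.4 and 18.1 (log2 change -6.00 ± 0.56, adjusted p = 7.34e-09), and *NCED3*, of the rate-limiting step of synthesis, from 198, 276 and 475 to 15, 41.5 and 20.04 (log2 change -3.61 ± 0.97, adjusted p = 0.00319). Of the genes for breakdown, *CYP707A1* and *CYP707A3* rose (3.02 and 3.12, the second call lost in a fit of these groups alone (0.0644)) and *CYP707A2* was called lower (-1.52), a call lost after rescaling to the same total (0.425), after rescaling without the 100 highest genes (0.056), in a fit of these groups alone (0.131), without WT replicate 3 (0.081) and without triple mutant replicate 3 (0.276). The receptor gene *PYL4* was also called lower (-1.83; lost after rescaling to the same total (0.0756), adjusted p in parentheses). Under the same total the list had 9 higher and 2 lower.

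Defence lists were raised most at the ethylene and jasmonate branch. Of 9 genes of the *PDF1* branch, 7 were called higher and 1 lower (median 6.45), beside 30.8% and 22.8% of all genes. *PDF1.2b* and *PDF1.2* were listed at 0 in all WT libraries and had 382, 306 and 997 and 151, 102 and 505 in the triple mutant. In *brm-3* they had 3.4, 9.13 and 4.95 and 0, 0.882 and 1.78. Triple mutant replicate 3 was the highest for *PDF1.2*, *PDF1.2b* and *PDF1.3*. The chitinase gene *HCHIB* was the member called lower (402, 398 and 280.2 against 59.7, 98.6 and 202; lost after rescaling to the same total (0.163)), and *ERF1* did not pass the test. Under quantile normalization the list had 6 higher and 1 lower.

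Jasmonate genes had 10 of 26 higher and 3 lower, beside 30.8% and 22.8% of all genes. *JAZ10*, a repressor induced by the hormone, had 56.9, 10.3 and 17.44 in WT and 213, 102 and 384 in the triple mutant (log2 change 3.15 ± 0.69, adjusted p = 0.000491). The calls for *JAZ5*, *JAZ7* and *JAZ8* were lost without 1 or more libraries: that of *JAZ8* without triple mutant replicate 1 (0.0644) and without triple mutant replicate 3 (0.0683), that of *JAZ7* with a pseudocount of 0.1 (0.0679), after quantile normalization (0.11), in a fit of these groups alone (0.0553), without WT replicate 1 (0.205), without triple mutant replicate 1 (0.0791) and without triple mutant replicate 3 (0.0715), and that of *JAZ5* after quantile normalization (0.136), in a fit of these groups alone (0.11), without WT replicate 1 (0.0511), without WT replicate 3 (0.0585) and without triple mutant replicate 3 (0.0629), with the adjusted p in parentheses. *AOS*, of jasmonate synthesis, fell from 8548, 7797 and 5759 to 2321, 1737 and 1562 (log2 change -1.98 ± 0.21, adjusted p = 3.96e-08), and so did the factor gene *MYC3* (-1.37; lost after rescaling to the same total (0.309)). *JAZ3* was called lower (-0.78), a call lost after rescaling without the 100 highest genes (0.143), in a fit of these groups alone (0.122), without WT replicate 2 (0.0561), without WT replicate 3 (0.131) and without triple mutant replicate 2 (0.256), and changed sign under the same total (0.23). Under that scaling the list had 21 higher and 1 lower, under quantile normalization 8 higher and 3 lower, and without triple mutant replicate 3 the number called higher was 6.

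The salicylic acid list had 4 of 13 genes called higher and 1 lower, shares at or below those of all genes. *WRKY70* had 29.6, 4.18 and 8.85 in WT and 69.99, 27.7 and 93.8 in the triple mutant (log2 change 2.32 ± 0.64, adjusted p = 0.00393; call lost in a fit of these groups alone (0.0638)), and *CBP60G*, which drives salicylic acid synthesis, fell from 107, 70.6 and 103 to 0, 17.9 and 30.3 (log2 change -3.47 ± 0.79, adjusted p = 0.000811). The calls for *EDS1* (1.21), *SAG101* (1.05) and *PR1* (9.37, 0 and 168 in the triple mutant, 0 in WT) depended on single libraries: *EDS1* was lost without triple mutant replicate 1 (0.0702), *SAG101* after quantile normalization (0.118), in a fit of these groups alone (0.144), without WT replicate 1 (0.113), without WT replicate 3 (0.0778), without triple mutant replicate 1 (0.126) and without triple mutant replicate 3 (0.152) and *PR1* with a pseudocount of 5 (0.0616), under a filter at a mean of 50 (0.103), after quantile normalization (0.19), without WT replicate 1 (0.0588), without WT replicate 2 (0.0612), without WT replicate 3 (0.064), without triple mutant replicate 1 (0.0603) and without triple mutant replicate 3 (0.296), with the adjusted p in parentheses. The list had 9 higher and 1 lower under the same total and 2 higher and 1 lower under quantile normalization. Without WT replicate 3 it had 2 genes called higher, without triple mutant replicate 1 it had 1 and without replicate 3 it had 2.

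Of 20 glucosinolate genes 11 were called higher and 1 lower (median 1.52), beside 30.8% and 22.8% of all genes. *MYB28* and *MYB29*, which switch on the methionine-derived branch, rose from 297, 197 and 171 to 1576, 1688 and 1353 (log2 change 2.82 ± 0.21, adjusted p = 2.56e-10) and from 18.6, 38.9 and 5.15 to 338, 363 and 269 (log2 change 4.25 ± 0.79, adjusted p = 8.97e-05). *MYB76* of the same clade changed by 4.49 and *FMO GS-OX1*, for side chain oxidation, by 2.56. The only member called lower was *CYP79B3* of the tryptophan-derived branch (805, 876 and 999 against 437, 659 and 409), whose sign turned under the same total (0.16). Neither *CYP83A1* (log2 change 0.53) nor *CYP83B1* (0.13) passed the thresholds. Rescaled to the same total, the list had 18 higher and 0 lower.

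Flavonoid and anthocyanin genes had 11 of 21 tested members called higher and 2 lower (median 1.89), beside 30.8% and 22.8% of all genes. Chalcone synthase (*CHS*, annotated *TT4*), the entry enzyme, had 25.6, 40.4 and 16.2 in WT and 1137, 472 and 546 in the triple mutant (log2 change 4.64 ± 0.55, adjusted p = 2.52e-07), with 1015, 750.5 and 540.5 in *brm-1*. The flavonol regulator *MYB111* and the anthocyanin regulator *PAP2* (annotated *MYB90*) were listed at 0 in WT and had 128, 61.9 and 135 and 79, 20.4 and 22.1. The 2 members called lower were the repressor *MYBL2*, from 3424, 3223 and 4866 to 117, 132 and 144 (log2 change -4.84 ± 0.25, adjusted p = 7.6e-13), and *TTG1*, a cofactor of the anthocyanin MYB factors, from 961, 1237 and 1895 to 158, 129 and 127 (log2 change -3.25 ± 0.20, adjusted p = 1.1e-11). *CHI* and *F3'H* (annotated *TT5* and *TT7*) did not pass the test. Under quantile normalization the list had 6 higher and 2 lower, with a median of 0.752, and under the same total 14 higher and 2 lower.

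Among 22 auxin genes 12 were called lower and 4 higher (median -1.31), beside 22.8% and 30.8% of all genes. *GH3.5* (annotated *WES1*), which conjugates auxin, fell from 3363, 2903 and 7235 to 75.9, 101 and 105 (log2 change -5.46 ± 0.32, adjusted p = 5.03e-12), and *GH3.6* and *GH3.3* fell by 3.71 and 3.79. The efflux carrier gene *PIN7* fell from 2208, 2533 and 2898 to 226, 219 and 216 (log2 change -3.51 ± 0.23, adjusted p = 2.79e-11). *IAA4* (annotated *ATAUX2-11*) rose from 318, 962 and 494 to 2683, 3133 and 2963 (log2 change 2.45 ± 0.40, adjusted p = 1.93e-05), and the others called higher were *IAA17* (0.70), *IAA5* (2.80; lost after quantile normalization (0.0717), in a fit of these groups alone (0.0804) and without WT replicate 1 (0.0588)) and *IAA1* (1.12; lost with a pseudocount of 0.1 (0.0563), with no filter (0.0603), after quantile normalization (0.0918), without WT replicate 1 (0.0528), without WT replicate 2 (0.0737), without WT replicate 3 (0.125), without triple mutant replicate 2 (0.157) and without triple mutant replicate 3 (0.105)), with the adjusted p in parentheses. The list had 8 higher and 8 lower under the same total and 2 higher and 12 lower under quantile normalization, and 2 genes called higher without WT replicate 1.

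Of 19 gibberellin genes tested 6 were called lower and 3 higher (median -0.08), beside 22.8% and 30.8% of all genes. *GAI* and *RGL3*, for DELLA repressors of growth, fell from 1505, 2284 and 2903 to 96.4, 162 and 255 (log2 change -3.75 ± 0.27, adjusted p = 1.4e-10) and from 421, 279 and 432 to 5.53, 19.6 and 9.05 (log2 change -5.07 ± 0.43, adjusted p = 1.48e-09). *GA2OX6*, for inactivation of the hormone, rose from 48.7, 53.8 and 66.8 to 478, 215 and 354 (log2 change 2.54 ± 0.48, adjusted p = 0.000121). *GA1*, of the first step of synthesis, was listed at 0 in WT and had 9.49, 29.3 and 8.4, a call lost after quantile normalization (0.0765), and the third higher call, of *GA2OX2* (1.36), was lost after quantile normalization (0.0601), in a fit of these groups alone (0.0792), without WT replicate 1 (0.185), without triple mutant replicate 1 (0.0507) and without triple mutant replicate 3 (0.0701), with the adjusted p in parentheses. Alpha-expansins, which loosen cell walls, fell in 8 of 11 and rose in 1 (median -1.22), beside 22.8% and 30.8% of all genes. *EXPA8* had 4945, 4818 and 4432 in WT and 678, 1226 and 628 in the triple mutant (log2 change -2.55 ± 0.20, adjusted p = 3.19e-10), and *EXPA3* and *EXPA11* changed by -2.40 and -1.85. The rise of *EXPA10* (0.86) was lost without WT replicate 2 (0.101). Under the same total gibberellin genes had 8 higher and 2 lower and expansins 1 higher and 3 lower, and under quantile normalization gibberellin genes had 1 higher and 8 lower.

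Dark-induced and sugar starvation genes fell in 11 of 15 tested members and rose in 1 (median -1.40), beside 22.8% and 30.8% of all genes. *ASN1* (*DIN6*), for asparagine synthetase, had 17880, 17820 and 49700 in WT and 255, 364 and 464 in the triple mutant (log2 change -6.16 ± 0.35, adjusted p = 4.21e-12), and WT replicate 3 stood above the other WT libraries. *MGL*, for methionine gamma-lyase, went from 9609, 10360 and 15030 to 135, 148 and 153 (log2 change -6.29 ± 0.23, adjusted p = 6.91e-15). *MCCA* and *BCAT2*, for leucine breakdown, fell by 3.38 and 3.03, and *BZIP63* (annotated *BZO2H3*), a starvation regulator, was the member called higher (388, 546 and 519.8 against 1516, 1844 and 1357). After rescaling to the same total 4 were called lower.

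Starch genes were mixed, 6 of 21 higher and 3 lower, beside 30.8% and 22.8% of all genes. *BAM3*, the plastid beta-amylase of night-time degradation (annotated *CT-BMY*), rose from 105, 164 and 145 to 926, 578 and 795 (log2 change 2.46 ± 0.31, adjusted p = 8.08e-07), and the phosphatase genes *SEX4* and *LSF2* by 1.59 and 1.81. *GBSS1*, for amylose synthesis, fell from 213, 185 and 309 to 38, 47.7 and 40.6 (log2 change -2.43 ± 0.35, adjusted p = 4.93e-06), and *BAM1* was lower as well (log2 change -2.004). The fall of *BAM9* (annotated *BMY3*; -1.14) was lost after rescaling to the same total (0.773), without WT replicate 3 (0.0751) and without triple mutant replicate 2 (0.0647), with the adjusted p in parentheses. Under the same total 15 were called higher and 2 lower.

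Of 21 iron and copper genes only 2 were called higher, *NAS4* (3.72) and *FER4* (0.80), and 4 lower. Over all genes the shares were 30.8% and 22.8%. *OPT3*, a transporter that informs the root of the shoot's iron, fell from 1114, 1215 and 975 to 332, 233 and 232 (log2 change -2.06 ± 0.22, adjusted p = 6.46e-08). The ferric reductase gene *FRO2* was low (27.8, 15.1 and 36.8 against 0, 0 and 6.7; lost without triple mutant replicate 1 (0.0586) and without triple mutant replicate 2 (0.0567)). The calls for *BTS* (-1.15) and the ferritin gene *FER1* (-0.88) were lost too, that of *BTS* after rescaling to the same total (0.716), in a fit of these groups alone (0.0546) and without triple mutant replicate 3 (0.051) and that of *FER1* after quantile normalization (0.131), after rescaling without the 100 highest genes (0.0669), in a fit of these groups alone (0.0501), without WT replicate 3 (0.12) and without triple mutant replicate 1 (0.0643), with the adjusted p in parentheses. Without triple mutant replicate 1 the list had 2 lower calls, and under the same total it had 7 higher and 2 lower and under quantile normalization 4 higher and 3 lower. Nitrate genes had 3 of 8 called lower and none higher, beside 22.8% and 30.8% of all genes. They were the transporter gene *NRT1.1* (3583, 4634 and 5173 against 1921, 1961 and 1923, log2 change -1.19 ± 0.16, adjusted p = 2.42e-06), *NIA2* for nitrate reductase (-0.87) and *GLN2* for plastid glutamine synthetase (-0.65). None of these 3 calls held under the same total, where *NIA2* and *GLN2* (annotated *GS2*) changed sign (0.15 and 0.37) and the list had 4 higher and 0 lower. The *NIA2* call was also lost after quantile normalization (0.072), and that of *GLN2* after quantile normalization (0.378), after rescaling without the 100 highest genes (0.111), without WT replicate 2 (log2 change -0.59) and without triple mutant replicate 1 (log2 change -0.60). Under quantile normalization the list had 0 higher and 1 lower.

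Of 17 other subunits of SWI/SNF complexes 3 were called higher and 5 lower, beside 30.8% and 22.8% of all genes. The list had 8 higher and 1 lower under the same total and 2 higher and 7 lower under quantile normalization. *SWP73B* (annotated *CHC1*), a core subunit, fell from 1428, 1338 and 1396 to 188, 134 and 114 (log2 change -3.28 ± 0.20, adjusted p = 1.39e-11), also below *brm-3* (224, 259 and 260.1, adjusted p = 0.00662) and *bcl7a bcl7b* (594, 516 and 609.8, adjusted p = 1.54e-06). AT3G01890, its paralog, had 74.3, 164 and 159.6 in WT and 59.98, 31.8 and 60.1 in the triple mutant, a call lost after rescaling to the same total (0.465) and in a fit of these groups alone (0.0652). *SWI3B* (-1.40), *ARP4* (-1.32) and the bromodomain gene *BRD1* (AT1G20670; -1.72) were the other members called lower. Of the 5 lower calls that of *SWP73B* alone held under the same total. The ATPase gene *MINU2* (annotated *CHR23*) rose from 0, 27.6 and 23 to 188, 92.3 and 120.3 (log2 change 3.87 ± 0.84, adjusted p = 0.00049) and *BRD2* (AT1G76380) from 86, 30.6 and 52.2 to 325, 191 and 223 (log2 change 2.19 ± 0.36, adjusted p = 2.52e-05), while the call for *MINU1* (annotated *ATCHR12*; 1.11) was lost after quantile normalization (0.0537), in a fit of these groups alone (0.067), without WT replicate 1 (0.0939) and without triple mutant replicate 2 (0.0687), with the adjusted p in parentheses. Of 10 Polycomb group and H3K27 demethylase genes, *VRN2* was called higher (0, 57.7 and 64.5 against 335, 356 and 499.7, log2 change 4.64 ± 0.96, adjusted p = 0.000311), as were *CLF* and AT5G46910, whose calls were lost after quantile normalization (0.0634), in a fit of these groups alone (0.135) and without WT replicate 1 (0.141) and after quantile normalization (0.203), in a fit of these groups alone (0.143) and without WT replicate 1 (0.151), and the demethylase gene *ELF6* was called lower (193, 155 and 161 against 72.2, 56.2 and 90.5; lost after rescaling to the same total (0.616)). That is 3 of 10 called higher and 1 lower, beside 30.8% and 22.8% of all genes, so the higher share was near that of all genes. Polycomb genes called higher numbered 1 without WT replicate 1, 5 without WT replicate 2 and 7 under the same total, and quantile normalization gave 1 higher and 3 lower.

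The triple mutant was then compared with the *brm-3* single mutant, which asks what loss of both BCL7 genes adds to the weak *BRM* allele, with no WT library involved. Of 21596 genes 1960 (9.08%) were called higher and 2622 (12.1%) lower, with a median log2 change of -0.01. Higher calls made up 42.8% of the calls, and 53.9% after rescaling to the same total. Besides *BCL7B* (945, 964 and 769 in *brm-3*), the steepest falls were in AT1G66100, AT3G11110, AT3G52070 and AT1G23052. The last had 364, 338 and 110.3 in *brm-3* and 0, 38.3 and 0 in the triple mutant (log2 change -6.14 ± 2.16, adjusted p = 0.0442), and the 31-base words of AT3G52070 (95.8%) and AT1G23052 (100%) are nearly all shared. The steepest rises were in *FTM1*, *PEPC1*, *IPS1*, AT3G20395 and *SRO4*. AT3G20395 had 0.915, 0.897 and 1.75 in *brm-3*, 551, 554 and 519 in the triple mutant (log2 change 7.97 ± 0.50, adjusted p = 2.52e-10) and 116, 162 and 175 in WT, so that *brm-3* stood below both. *SRO4*, of the family of *SRO5*, had 0.894, 0 and 0.852 in *brm-3* and 383, 245 and 332 in the triple mutant (log2 change 7.70 ± 0.68, adjusted p = 5e-08).

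This comparison shares the triple mutant libraries with the one against WT. Phosphate starvation genes were called higher in 18 of 30 and lower in 1, *PDF1* branch genes higher in 7 of 9, glucosinolate genes higher in 11 of 20 and heat shock genes higher in 7 of 14, beside 9.08% of all genes. *SPX3* had 0.901, 7.96 and 0 and *MIR399c* was listed at 0 in all *brm-3* libraries. On the lower side were 13 of 20 antenna genes, 15 of 28 photosystem genes, 8 of 18 Calvin cycle genes, 8 of 22 auxin genes and 8 of 21 iron and copper genes, beside 12.1%. *LHCB1.5* had 114900, 176800 and 174500 in *brm-3*, between WT and the triple mutant (log2 change -2.65 ± 0.42, adjusted p = 8.16e-05). *PSAF* had 16620, 22560 and 30580 (log2 change -1.73 ± 0.23, adjusted p = 1.06e-05). In the clock lists 1 of 11 morning genes was called higher and 2 lower. Of 12 evening genes 3 were called lower and none higher. Over all genes the shares were 9.08% higher and 12.1% lower. *RVE2* had 5226, 5307 and 4100 (adjusted p = 0.948) and *ELF4* 1776, 2144 and 1547 (adjusted p = 0.939), so that both overlapped the triple mutant. *CHE* was one of the evening genes called lower (1524, 1751 and 1781 in *brm-3*, log2 change -2.32 ± 0.18, adjusted p = 8.74e-09). Expansins, lower than in WT, were called higher than in *brm-3* in 4 of 11, beside 9.08% of all genes.

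Compared with the *bcl7a bcl7b* double mutant, 2982 genes (13.8%) were called higher and 3258 (15.1%) lower, with a median log2 change of 0.05. Among the steepest rises were *PDF1.3* (3.55, 2.43 and 3.67 in the double mutant), AT2G17850, *IPS1* (5.73, 0 and 5.92), AT2G04460 and AT1G12805. AT1G12805 was listed at 0 in WT, and had 4.3, 0 and 0 in the double and 756, 459.6 and 464 in the triple mutant (log2 change 8.26 ± 0.84, adjusted p = 3.34e-07). The steepest falls were in AT2G35945, AT4G22485, AT4G15160, *SAP130b* and AT2G04380. For AT4G22485 the double mutant (1391, 738 and 1335) overlapped WT (732, 889 and 969), and the triple mutant had 2.37, 17.1 and 0 (log2 change -8.00 ± 0.74, adjusted p = 9.96e-08). AT4G15160 had 119.6, 571 and 119.9 in the double and 0, 0 and 25.7 in the triple mutant (log2 change -6.46 ± 0.96, adjusted p = 2.83e-05).

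Antenna genes were called lower than in the double mutant in 15 of 20, photosystem genes in 16 of 28 and Calvin cycle genes in 14 of 18, beside 15.1% of all genes. *LHCB2.1* had 6758, 4039 and 6782 in the double mutant (log2 change -1.59 ± 0.29, adjusted p = 0.000221). *ASN1* had 6153, 6103 and 6227 there, against 255, 364 and 464 in the triple mutant (log2 change -4.13 ± 0.39, adjusted p = 1.34e-07). Called higher were 18 of 30 phosphate starvation genes, 7 of 9 *PDF1* branch genes, 10 of 26 jasmonate genes, 6 of 12 cold genes and 4 of 6 floral organ genes, beside 13.8%. *SEP3* had 68.1, 88.4 and 69.4 in the double mutant (log2 change 4.14 ± 0.47, adjusted p = 1.19e-06), below WT replicates 1 and 2. Of the evening clock genes 6 of 12 were called lower, among them *TOC1* (1230, 941 and 1240, log2 change -0.86 ± 0.24, adjusted p = 0.00795) and *ZTL* (958, 929 and 949, log2 change -1.74 ± 0.23, adjusted p = 5.76e-06), and 1 of 11 morning genes, *PRR9* (3.88, 11.1 and 4, log2 change -2.34 ± 0.83, adjusted p = 0.0371).

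The design also allows a test of whether the change of the triple mutant departs from the sum of the *brm-3* and *bcl7a bcl7b* changes on the log2 scale. This contrast uses the WT libraries of the other comparisons again. The triple mutant lay above the sum for 1123 genes (5.2%) and below it for 1359 (6.29%). Departures above thus made up 45.2% of the calls, but 6.64% after rescaling to the same total and 21.5% after rescaling without the 100 highest genes, where the median over all genes was -1.04 and -0.53 instead of -0.23. *IPS1* lay furthest above, by 10.94 (adjusted p = 0.00625), with 19.9, 359 and 0 in WT and no more than 5.92 in any *brm-3* or *bcl7a bcl7b* library. *EARLI1*, for a lipid transfer-like protein, had 26.9, 27.3 and 23.2 in *brm-3* and 90.8, 68.1 and 89.4 in the double mutant, while its 1559, 1114 and 1464 in the triple mutant overlapped the 1384, 2028 and 525 of WT (log2 change 9.52 ± 0.51, adjusted p = 3.65e-11). AT3G29970 was listed at 0 in both constituent mutants and in WT, and its departure is thus the triple mutant's whole value (adjusted p = 7.52e-06).

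**Figure D5:**
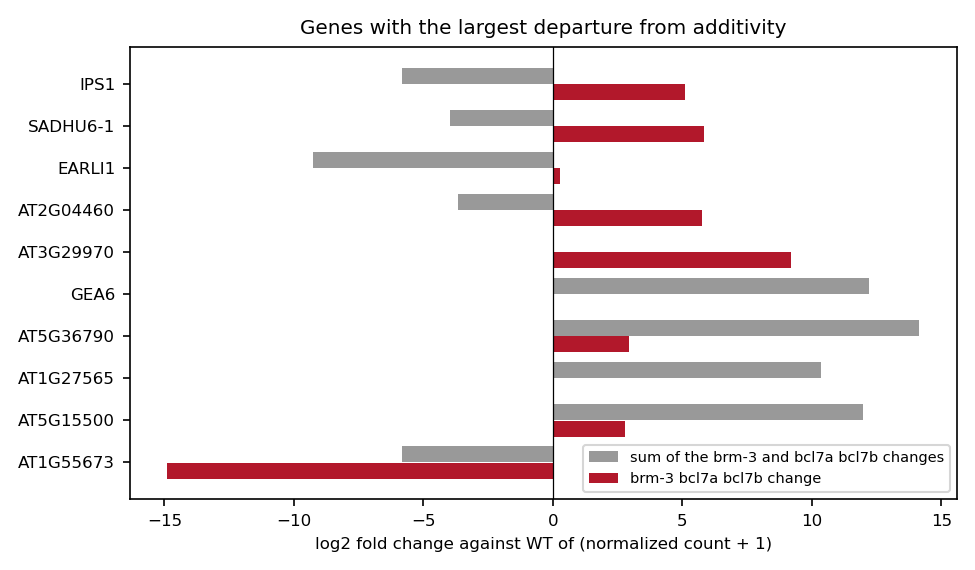
Log2 fold changes against WT of the 5 genes furthest above and the 5 furthest below additivity (horizontal axis, log2 of the normalized count plus 1; 1 gene per row). Grey bars give the sum of the *brm-3* and *bcl7a bcl7b* changes and red bars the change of the triple mutant. For *GEA6* and AT1G27565 the red bar has no length because WT and the triple mutant are both listed at 0.

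At the lower end, *EM6* (annotated *GEA6*), a late embryogenesis abundant gene, was listed at 0 in WT and in the triple mutant but had 79, 33.2 and 112 in *brm-3* and 92.9, 50.02 and 95.9 in *bcl7a bcl7b* (log2 change -12.20 ± 1.39, adjusted p = 5.03e-06). AT1G27565 (64.9% of 31-base words shared) was likewise at 0 in both, with 498, 660 and 627 in *brm-3*. AT5G15500 had 0, 0 and 1.55 in WT, 428, 38.2 and 432 in the double and 9.08, 12 and 5.43 in the triple mutant (log2 change -9.17 ± 1.38, adjusted p = 0.000135). For 3 further genes the WT libraries differed among themselves. SADHU6-1, a retrotransposon, had 498, 0 and 0 in WT, AT2G04460 55.8, 54.6 and 0 and AT5G36790 (97.7% of 31-base words shared) 0, 582 and 0.

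By list, the triple mutant lay above the sum in 7 of 20 antenna genes and below in 1, beside 5.2% and 6.29% of all genes. For *LHCB1.1*, *brm-3* (2189, 3420 and 2949) and *bcl7a bcl7b* (11190, 4390 and 11100) were each far below WT, and the triple mutant fell less than both changes added (log2 change 5.56 ± 0.50, adjusted p = 2.7e-07). *RVE2* was as high in *bcl7a bcl7b* (6783, 3221 and 6782) as in the triple mutant, and lay below the sum (log2 change -6.22 ± 0.56, adjusted p = 2.7e-07). *BOA*, *TOC1* and *ELF4* were 3 of the 6 evening genes below it (-6.90, -3.02 and -2.51). Phosphate starvation genes lay above in 9 of 30 and below in 1, and *PDF1* branch genes above in 6 of 9. For *PEPC1* neither constituent mutant had more than 17.61, and the departure was 7.21 (adjusted p = 0.00663). Calvin cycle genes lay below in 7 of 18, *RBCS1B* among them (39010, 35520 and 39300 in *bcl7a bcl7b*, log2 change -4.22 ± 0.47, adjusted p = 3.49e-06), and iron and copper genes below in 11 of 21 and above in 2. Auxin genes lay above in 6 of 22 and below in 1.

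Finally, short promoter motifs were compared between the genes that rose and those that fell against WT. The G-box was found in 8.99% of the windows of genes called higher and 9.28% of those called lower, beside 8.74% of all tested. The telo-box (AAACCCTA), frequent in ribosomal protein genes, was found in 6.09% and 4.36%, beside 5.47%. Both strands were searched, and no test was made.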

How the data were processed

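RNA-seq was measured in 24 seedling libraries of 8 genotypes, of which those of *brm-3 bcl7a bcl7b* and WT are compared here. Per their methods and processing notes, the authors quantified reads with Salmon 1.5.1 against the AtRTD2 transcriptome (genome build TAIR10), gave TPM values to DESeq2 and deposited normalized counts in a single file for 33681 genes, treated here as a normalized signal, since whole reads could not be recovered and depth in reads is therefore unknown. All 24 columns were assigned from their names and 0 were left over.

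Values were tested as log2(value + 1) in the 21596 genes that reached 10 in 3 or more libraries. The two-sided test was that of limma 3.58.1 in R 4.3.3, with a mean-variance trend (tables were read with version 1.17.8 of data.table). A call needed an adjusted p (Benjamini-Hochberg) under 0.05 and a log2 change beyond 0.6 in either direction, the thresholds of the methods. All genotypes shared the fit. The *bcl7a bcl7b* replicates 1 and 3 were averaged, which left 23 samples and 15 residual degrees of freedom. The script was tested on simulated data.

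The members of the gene lists (555 genes in 36 lists, 551 of them in the file and 513 tested) and the comparisons were chosen with earlier results of these data known. Genes were named by a rule: the mutated genes; the 10 largest rises and falls against WT without overlap between groups; the 5 highest called genes listed at 0 in either group; the 5 called genes with the highest WT mean; up to 4 called members per list and direction, up to 2 members not called, and any member behind a count of 5 or fewer; and the 5 largest rises and falls of each other contrast. The low-oxygen list and each of its genes were added after the values had been seen.

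Equal replicate numbers did not pair the libraries: the deviations of triple mutant and WT libraries of the same number correlated at 0.00346, -0.0156 and 0.055. Alternatives were pseudocounts of 0.1 and 5, no filter or a mean of at least 50, quantile normalization, rescaling to the same total with and without the 100 highest genes, all 24 libraries, a fit of the compared groups alone, a log2 threshold of 1, a replicate block and leaving out single libraries. Gene symbols, positions, promoters and miRNA sequences were read from the RefSeq annotation of TAIR10.1, which holds 32954 of the deposited identifiers. Shared sequence is the share of a gene's 31-base words found elsewhere in annotated genes.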

Additional observations from a re-analysis of the deposited data

Results flagged for a closer look

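In the test of departure from additivity, 1123 genes lay above the sum of the *brm-3* and *bcl7a bcl7b* changes and 1359 below it, the contrast that tests whether the effect of *brm-3* differs between plants with and without the *bcl7a* and *bcl7b* insertions. The genes furthest above the sum were *IPS1* (by 10.94 on the log2 scale), SADHU6-1 (9.815), *EARLI1* (9.518), AT2G04460 (9.43) and AT3G29970 (9.18). Those furthest below it were *GEA6* (-12.2), AT5G36790 (-11.21), AT1G27565 (-10.36), AT5G15500 (-9.167) and AT1G55673 (-9.04). The WT values that enter this contrast ranged widely for *IPS1* (19.9, 359 and 0), SADHU6-1 (498, 0 and 0) and AT5G36790 (0, 582 and 0).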

How the results depend on the processing

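The numbers of genes called against WT shifted most with the scaling: after rescaling to the same total 12091 were higher and 1985 lower. Departures from additivity numbered 488 above and 6857 below after that rescaling, 727 and 2656 after rescaling without the 100 highest genes, and 617 and 670 in a fit of the compared groups only. With all 24 libraries 2094 lay below. With a log2 threshold of 1, 1638 genes were lower than in *brm-3*. Leaving out 1 library at a time gave 5969 to 6704 genes higher and 4496 to 5062 lower against WT, 1326 to 1697 and 1917 to 2471 against *brm-3*, 2398 to 2640 and 2932 to 3145 against *bcl7a bcl7b*, and 964 to 1225 above and 1178 to 1789 below additivity, of which 1789 without WT replicate 2 and 1688 without WT replicate 3. No leaving out of a *bcl7a bcl7b* library was run, and for additivity none of a *brm-3* library either.

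Replicate numbers did not pair the libraries, and with a replicate block 6786 genes were higher and 4986 lower against WT, 2100 and 2729 against *brm-3*, 3678 and 3914 against *bcl7a bcl7b*, and 1572 above and 2138 below additivity. The block was fitted to all 24 libraries, which alone gave 1565 and 2094 departures.

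Of the 320 genes named by the rule, 232 were called against WT. Among these, 159 kept the call with the same sign under every alternative in which they were tested. The others lost the call or changed sign under at least 1. Some named genes were not tested under the filter on the mean or in the fit of the compared groups only. Their calls were not checked there. Changes of sign against WT, as log2 change, came after quantile normalization for *PSBR* (1.094), *DRT112* (1.174), *RBCS1A* (0.1229) and *FSD1* (0.8387). Signs turned under the same total for *BSH* (0.7145), AT3G60750 (0.6867), *G4* (0.7369), *NOL* (0.1484), *PHO2* (0.2396), *RAV2* (0.3098), *KNAT5* (0.06107), *RD22* (0.9324), *HSP70* (0.9797), *JAZ3* (0.2321), *NPR1* (0.9084), *CYP79B3* (0.1595), *GA3* (0.933), *IAA7* (0.6001), *IAA2* (0.995), *FER1* (0.1407), *NIA2* (0.1485), *GS2* (0.3715) and *NIA1* (0.7535). The median of all genes was then 1.26, which these values stay below. For the other changes the cause was not tested. Depth in reads is unknown, so the precision of low values rests on the spread between libraries alone.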
